A study of Mus musculus with 6 samples.

Results

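The 9 genes described here encode growth factors that fibroblasts secrete to act on neighbouring cells: Fgf2, Fgf7 and Fgf10 of the fibroblast growth factor (FGF) family, the platelet-derived growth factor chain Pdgfa, the hepatocyte growth factor Hgf, the insulin-like growth factors Igf1 and Igf2, the neurotrophin Bdnf, and Gdf15, a distant member of the TGF-beta superfamily. They were chosen by symbol, and all 9 have a row among the 17525 genes of the deposited table. The knockdown group was 3 samples of C57BL/6 mouse cardiac fibroblasts carrying a lentiviral short hairpin RNA against Sipa1, which encodes an inhibitor of Rap GTPases. The scramble group was 3 samples of the same cells carrying a scramble hairpin. The mice were 6 weeks old, the cells were unpassaged, and both groups received lipopolysaccharide (LPS, a bacterial product sensed by Tlr4) at 1 µg/ml for the last 24 h, begun 72 h after the virus. The labels place all 6 samples in batch 1 and give neither the hairpin's sequence nor how many hairpins were used. Nothing in them tells whether replicates were independent cultures or mice, and p-values therefore rest on a sample-to-sample spread that could be technical.

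Most of these factors are ligands of receptor tyrosine kinases. FGF2 is read mainly by FGFR1 in fibroblasts themselves, FGF7 and FGF10 act on the epithelial splice form of FGFR2, PDGF-A on PDGFRA, HGF on MET, and both IGFs on IGF1R, while IGF2R removes IGF2. BDNF signals through NTRK2, and its precursor binds NGFR together with sortilin. GDF15 is a stress-induced circulating factor whose receptor GFRAL is known from the brainstem. In the injured heart, fibroblasts are a known source of such factors for cardiomyocytes, vessels and immune cells.

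The libraries held 30930998 to 41839742 reads in genes, with the 3 knockdown libraries between 37309897 and 41273283. Sipa1 was lower in every knockdown library: it averaged 17.6 ± 2.41 CPM in knockdown cells and 42.0 ± 1.46 CPM in scramble cells (SD, n = 3 each), where CPM is the read count scaled to library size with TMM factors. It stood at -1.25 on the log2 scale (SE 0.075, adjusted p = 2.64e-11 by edgeR). An exact two-sided permutation test gave p = 0.1, the smallest that 3 against 3 samples allow. The fibroblast markers were abundant, their 10 genes summing to 23351 to 25588 CPM in knockdown and 23473 to 26459 CPM in scramble libraries. Most of that sum came from Col1a1, Col1a2 and Col3a1. At the adjusted threshold 3 of the 10 were lower and 0 higher, and 4 lower and 0 higher at an unadjusted p under 0.05 in edgeR. The 3 were Tcf21 (mean 85.1 CPM in knockdown and 153 CPM in scramble cells, log2 -0.84), Pdgfra (log2 -0.30) and Dcn (log2 -0.18). Of 10 mesothelial markers 9 were measured and 7 rose. Their sum was 215 to 227 CPM in knockdown libraries, against 94.5 to 101 CPM in scramble libraries, and their part in the results below was not tested. The macrophage sum was 155 to 160 CPM in knockdown libraries, against 134 to 149 CPM in scramble libraries, and 1 of its 10 genes rose. That gene was Csf1r, at a mean of 29.7 CPM in knockdown and 17.0 CPM in scramble cells. Lyz2, the largest part of the macrophage sum, was at 85.7 and 84.4 CPM and did not pass the threshold. The endothelial sum was 214 to 224 CPM in knockdown and 213 to 230 CPM in scramble libraries, where 2 of 10 genes rose and 2 fell. The sum of smooth muscle and pericyte markers was 637 to 690 CPM in knockdown and 533 to 621 CPM in scramble libraries, where 1 of 9 measured genes rose and 2 fell. Most of it came from Acta2 (mean 316 CPM in knockdown, 293 in scramble cells) and Tagln (281 and 207), and Tagln was the gene that rose. Cspg4 (23.5 CPM in knockdown and 43.3 CPM in scramble cells) and Rgs5 (6.12 and 8.61 CPM) were the 2 that fell. The cardiomyocyte sum, of 4 measured genes among 10, was 25.5 to 32.7 CPM in knockdown and 20.7 to 22.4 CPM in scramble libraries, where 1 of 3 tested genes rose. That gene, Tnnt2, made up most of the sum, at a mean of 27.6 CPM in knockdown and 20.4 CPM in scramble cells. The part of these cell types in the results below was likewise not tested.

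Knockdown cells had less Bdnf, Pdgfa and Fgf2 RNA and more Gdf15 RNA. Igf2 was also called lower, but that call was lost in 8 of 17 alternative settings, DESeq2 among them. Fgf7, Fgf10, Hgf and Igf1 did not pass the threshold of an adjusted p under 0.05. The changes were moderate: Gdf15 rose to 1.47 times its scramble level, Bdnf, Pdgfa and Fgf2 kept 76.1% to 86.3% of theirs, and Igf2 stood at 71.7%. All 9 members passed the filter on low counts, and 5 of them were called, 4 lower and 1 higher. Among all 15954 genes tested, 32.2% were called, 15.8% lower and 16.4% higher. The median log2 fold change was -0.02 over the members and -0.0013 over all tested genes. In bulk RNA, fewer cells that make a transcript and less of it per cell cannot be told apart.

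**Figure D1:**
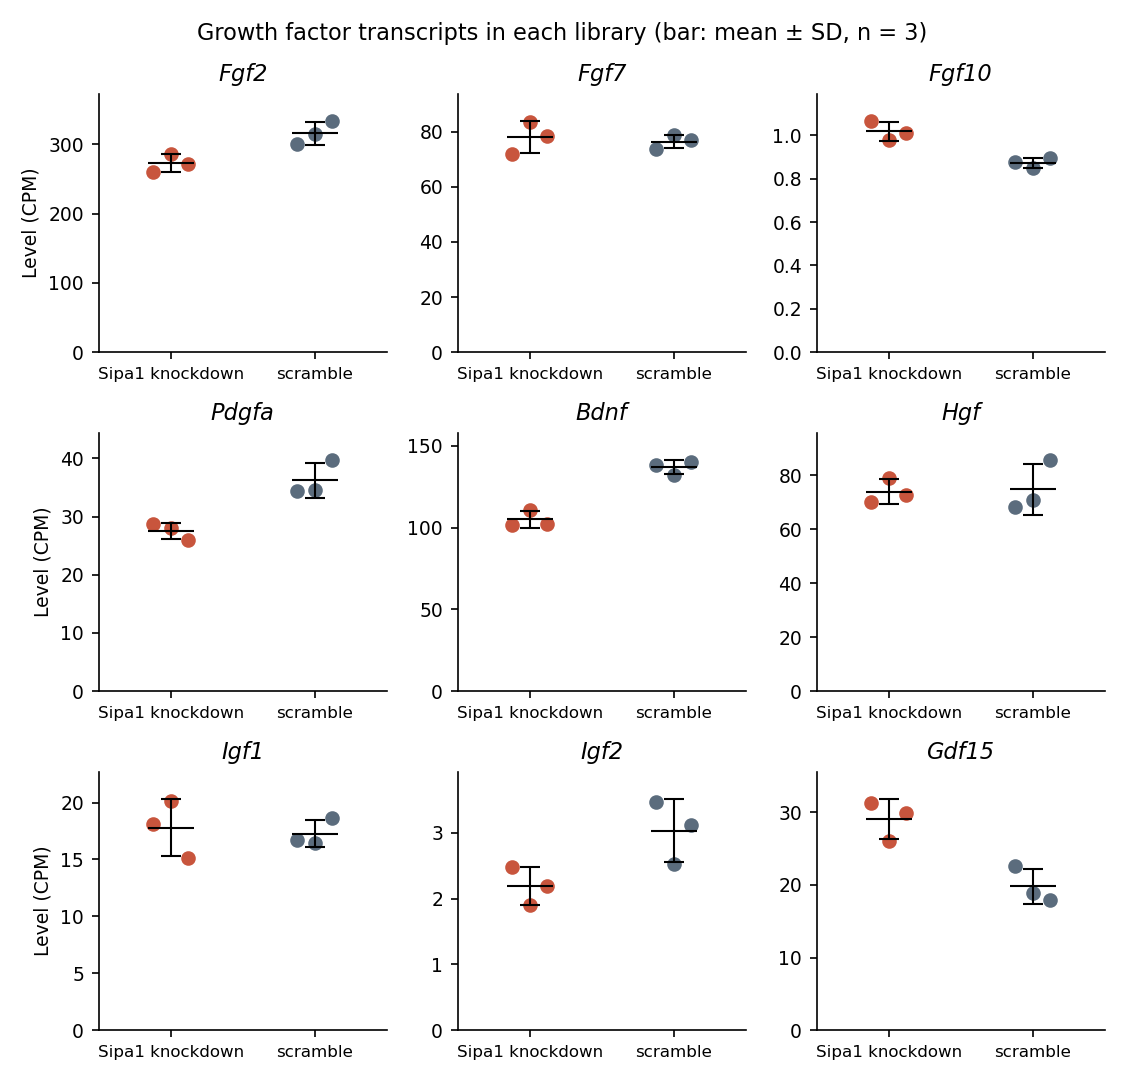
Level of each growth factor transcript in CPM (vertical axis, from 0) in the 3 Sipa1 knockdown and 3 scramble libraries (points), with the mean and SD. The groups stand apart for Fgf2, Pdgfa, Bdnf, Igf2, Gdf15 and, at about 1 CPM, Fgf10, and they overlap for Fgf7, Hgf and Igf1.

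Fgf2 (NCBI gene 14173; GRCm38 chromosome 3, 37348477 to 37410106, plus strand) encodes basic FGF, a heparin-binding mitogen that leaves cells without a signal peptide. Knockdown replicates 1, 2 and 3 had 260, 287 and 271 CPM, and scramble replicates 1, 2 and 3 had 299.9, 315 and 333 CPM. Every knockdown library lay below every scramble library, a separation of groups seen in 6 of the 9 members and, in either direction, in 43.6% of all tested genes. The mean was 273 ± 13.2 CPM in knockdown cells and 316 ± 16.8 CPM in scramble cells. This is a log2 fold change of -0.21 (SE 0.047, edgeR adjusted p = 0.00117), which leaves 86.3% of the scramble level and is the smallest of the 5 called differences. In the annotation Fgf2 is overlapped on the opposite strand by Nudt6, a nudix hydrolase gene, and by the antisense RNA gene Fgf2os. Nudt6 averaged 60.7 reads per library and stood at -0.26 (SE 0.22), and Fgf2os averaged 144 reads and stood at -0.01 (SE 0.15), against 9774 to 13790 reads per library for Fgf2. Neither passed the threshold. Libraries were strand-specific, but whether the counting used strand is unstated in the labels and headers, so reads in these overlaps are uncertain. Each of the other members except Gdf15 also overlaps an annotated gene with no row in the table used here. The overlap is on the opposite strand, where the same limit holds, in Fgf7 (Fam227b), Igf2 (Igf2os), Pdgfa (6330403L08Rik), Fgf10, Igf1 and Bdnf. In Hgf it is on the same strand. Igf2 is also overlapped on its own strand by the protein-coding gene Gm49394, over 16048 bases, and by Mir483. Fgf2 is overlapped on its own strand by Gm43439, over 56390 bases, and on the opposite strand also by Gm42923. None of these has a row, and on the same strand even counting by strand would not separate the reads.

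Fgf7 (gene 14178; chromosome 2, 126034658 to 126091185), also called keratinocyte growth factor, is made by stromal cells and acts on epithelium. Its level was 71.9, 83.5 and 78.6 CPM in knockdown replicates 1, 2 and 3, and 73.7, 78.7 and 76.9 CPM in scramble replicates 1, 2 and 3. The groups overlapped fully, the scramble values lying inside the knockdown range. The log2 fold change was 0.03, with a 95% interval of -0.08 to 0.14 (edgeR adjusted p = 0.717). Fgf10 (gene 14165; chromosome 13, 118714699 to 118792573), a stromal factor needed for lung and limb budding, was scarce, with 27 to 40 reads per library. It had 1.07, 0.977 and 1.01 CPM in knockdown replicates 1, 2 and 3, and 0.877, 0.850 and 0.894 CPM in scramble replicates 1, 2 and 3. The knockdown values were the higher ones without overlap, yet the interval ran from -0.31 to 0.74 on the log2 scale (0.22, SE 0.25, edgeR adjusted p = 0.566). A difference of this size was not detected.

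Pdgfa (gene 18590; chromosome 5, 138976014 to 139000792, minus strand) encodes the PDGF A chain, a mitogen for cells that carry PDGFRA. Knockdown replicates 1, 2 and 3 had 28.7, 28.0 and 26.0 CPM, and scramble replicates 1, 2 and 3 had 34.3, 34.6 and 39.7 CPM. All knockdown libraries were lower. The mean was 27.6 ± 1.38 CPM in knockdown cells and 36.2 ± 3.01 CPM in scramble cells, a log2 fold change of -0.39 (SE 0.065, edgeR adjusted p = 5.10e-05). Scramble replicate 3 was the highest. Without it the log2 fold change was -0.32 and the call was kept (edgeR adjusted p = 0.00116).

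The Egr and Sp1 families of zinc-finger factors are known regulators of Fgf2 and Pdgfa, and their part in the results was not tested. Bdnf and Igf2 were also called lower, but their windows are not printed. The promoter windows of Fgf2 and Pdgfa, chosen because both fell, are shown. They come from RefSeq on GRCm38.p6 and run from 250 bases before to 50 after an annotated start, 5′ to 3′ on the gene's strand. Capitals mark the Sp1 motif GGGCGG (on either strand) and the Egr motif GCGNGGGCG, which overlap in Fgf2. The table holds 1 start for Fgf2 and 2 for Pdgfa. All 3 lie inside the gene intervals given above, so no window is placed on the outermost annotated 5′ end of either gene. That end of Fgf2, base 37348477, falls within the printed window, while that of Pdgfa, base 139000792, falls outside both of its windows. The data do not tell which start was used.

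Fgf2, chr3:37348403-37348702, plus strand: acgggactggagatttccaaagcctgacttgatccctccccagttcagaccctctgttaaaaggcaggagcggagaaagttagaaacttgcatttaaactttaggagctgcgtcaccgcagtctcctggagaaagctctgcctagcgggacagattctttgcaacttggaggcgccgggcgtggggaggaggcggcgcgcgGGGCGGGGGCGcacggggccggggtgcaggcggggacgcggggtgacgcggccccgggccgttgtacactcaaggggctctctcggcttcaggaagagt

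Pdgfa, first start, chr5:138994895-138995194, minus strand: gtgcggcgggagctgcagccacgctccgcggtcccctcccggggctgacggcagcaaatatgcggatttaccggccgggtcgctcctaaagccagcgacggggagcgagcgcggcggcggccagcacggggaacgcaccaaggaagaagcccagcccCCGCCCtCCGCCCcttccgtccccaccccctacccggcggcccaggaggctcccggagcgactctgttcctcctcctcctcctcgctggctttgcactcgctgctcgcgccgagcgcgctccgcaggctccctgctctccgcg

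Pdgfa, second start, chr5:138994232-138994531, minus strand: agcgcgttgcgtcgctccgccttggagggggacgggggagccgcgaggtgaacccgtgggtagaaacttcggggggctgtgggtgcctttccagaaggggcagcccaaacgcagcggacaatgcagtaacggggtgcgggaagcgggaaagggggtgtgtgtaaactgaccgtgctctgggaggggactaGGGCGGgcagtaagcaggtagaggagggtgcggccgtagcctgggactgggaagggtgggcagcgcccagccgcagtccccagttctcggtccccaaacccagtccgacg

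The Fgf2 window holds 1 Sp1 and 1 Egr match, beginning 49 and 47 bases before the start. The first Pdgfa window holds 2 Sp1 matches, 93 and 86 bases before the start, and the second holds 1, at 60 bases. Of 32851 RefSeq windows, 35.7% hold the Sp1 motif and 5.55% the Egr motif. Neither Pdgfa window holds the Egr motif. Over the members, 8 of 21 windows hold the Sp1 motif. Besides those of Fgf2 and Pdgfa, they belong to Bdnf, Igf2 and Fgf10, the last of which was not called. In all, 9 motifs were searched on both strands, and 13 of the 21 windows hold at least 1 of them. Besides Sp1 and Egr these were the ATF4 element TGATGNAAN, the cAMP response element TGACGTCA, the AP-1 motif TGANTCA, the TATA box, the E-box CACGTG, and the NF-kappaB and serum response element motifs. The windows of Fgf7 and Hgf hold none, and that says nothing about the factors. A match describes letters only and shows no binding.

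Bdnf (gene 12064; chromosome 2, 109674700 to 109727043, plus strand) encodes a neurotrophin that supports neurons and vessels. Knockdown replicates 1, 2 and 3 had 102, 111 and 102 CPM, and scramble replicates 1, 2 and 3 had 139, 132 and 140 CPM. The gap between the groups was wider than the spread inside either. The mean was 105 ± 5.11 CPM in knockdown cells and 137 ± 4.24 CPM in scramble cells. This is a log2 fold change of -0.38 (SE 0.046, edgeR adjusted p = 7.03e-07), the smallest p among the members, and 76.7% of the scramble level was left. Bdnf has 7 annotated start windows, of which 4 held a searched motif. The longest annotated 3' UTR of Bdnf holds the 7-mer GCACAAC, and so does that of Fgf10, but no other member's. This 7-mer was picked after the data were seen, because genes carrying it tended to be lower. Among 10584 genes with an average log2 CPM above 2, its 531 carriers, 5.02%, had a median log2 fold change of -0.09, against 0.02 in the others. Fgf10, at an average log2 CPM of -0.0068, was outside that set and itself stood at 0.22 (SE 0.25). A second 7-mer picked in the same way, GTCGCCC, has 151 carriers (1.43%) with a median of 0.17, against 0.01 in the others, and no member carries it, Gdf15 included. The part of GCACAAC in the Bdnf result was not tested.

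Hgf (gene 15234; chromosome 5, 16553495 to 16619439) encodes a mesenchymal factor that drives growth and motility of epithelial and endothelial cells. It had 70.0, 78.9 and 72.5 CPM in knockdown replicates 1, 2 and 3, and 68.1, 70.7 and 85.5 CPM in scramble replicates 1, 2 and 3. The scramble group spanned the knockdown values, with its replicate 3 the highest of all 6 libraries. The log2 fold change was -0.02, with a 95% interval of -0.19 to 0.15 (edgeR adjusted p = 0.887). Its sign turned without scramble replicate 3 (0.09) and without knockdown replicate 1 (0.02).

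Igf1 (gene 16000; chromosome 10, 87858265 to 87937047), a growth and survival factor, had 18.1, 20.1 and 15.2 CPM in knockdown replicates 1, 2 and 3, and 16.7, 16.5 and 18.6 CPM in scramble replicates 1, 2 and 3. The knockdown libraries were the more scattered and reached both above and below the scramble values. The log2 fold change was 0.04 with a 95% interval of -0.14 to 0.23 (edgeR adjusted p = 0.757), and -0.06 without knockdown replicate 2.

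Igf2 (gene 16002; chromosome 7, 142650768 to 142666816, minus strand) is an imprinted fetal growth factor gene, and its RNA was scarce here. Knockdown replicates 1, 2 and 3 gave 93, 78 and 82 reads, which is 2.48, 1.90 and 2.18 CPM. Scramble replicates 1, 2 and 3 gave 138, 80 and 129 reads, which is 3.46, 2.52 and 3.12 CPM. The groups did not overlap in CPM, but knockdown replicate 1 and scramble replicate 2 were nearly level. The mean was 2.19 ± 0.286 CPM in knockdown cells and 3.03 ± 0.477 CPM in scramble cells, a log2 fold change of -0.48 (SE 0.17, edgeR adjusted p = 0.0395). That call was lost in 8 of 17 alternatives, among them DESeq2 (adjusted p = 0.0613) and leaving out scramble replicate 1 (0.189) or replicate 3 (0.104), or knockdown replicate 2 (0.129) or replicate 3 (0.0807). Over all alternatives the adjusted p ran from 0.0163 to 0.189. The authors' deposited table gives Igf2 an adjusted p of 0.0626, and it passes Fgf2, Pdgfa, Bdnf and Gdf15 at 0.05. Its log2 fold change for Igf2 (-0.480555) nearly equals that of DESeq2 here (-0.480559). Both come from the same libraries and are not separate evidence. H19, the imprinted noncoding RNA gene beside Igf2, stood at 0.26 (SE 0.16, edgeR adjusted p = 0.239).

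Gdf15 (gene 23886; chromosome 8, 70629393 to 70632470, minus strand), known as a target of the stress factors p53 and ATF4/CHOP, was the member that rose. The part of these factors in the Gdf15 result was not tested. Knockdown replicates 1, 2 and 3 had 31.3, 26.0 and 29.9 CPM, and scramble replicates 1, 2 and 3 had 22.5, 18.9 and 17.9 CPM. Every knockdown library was above every scramble library. The mean was 29.1 ± 2.73 CPM in knockdown cells and 19.8 ± 2.44 CPM in scramble cells, a log2 fold change of 0.55 (SE 0.083, edgeR adjusted p = 2.69e-05). Of its pair of promoter windows, the one at the second annotated start holds the single motif match found, an E-box 83 bases before the start, in capitals here. An E-box is in 7.15% of all windows, and neither Gdf15 window holds the ATF4 element, which 3.95% of windows have.

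Gdf15, second start, chr8:70632046-70632345, minus strand: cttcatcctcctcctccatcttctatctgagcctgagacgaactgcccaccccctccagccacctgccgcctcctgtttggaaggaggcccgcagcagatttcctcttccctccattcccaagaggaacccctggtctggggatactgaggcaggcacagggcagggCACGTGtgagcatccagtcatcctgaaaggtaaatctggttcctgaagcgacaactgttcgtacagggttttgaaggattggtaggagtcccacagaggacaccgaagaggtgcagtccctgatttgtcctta

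**Figure D2:**
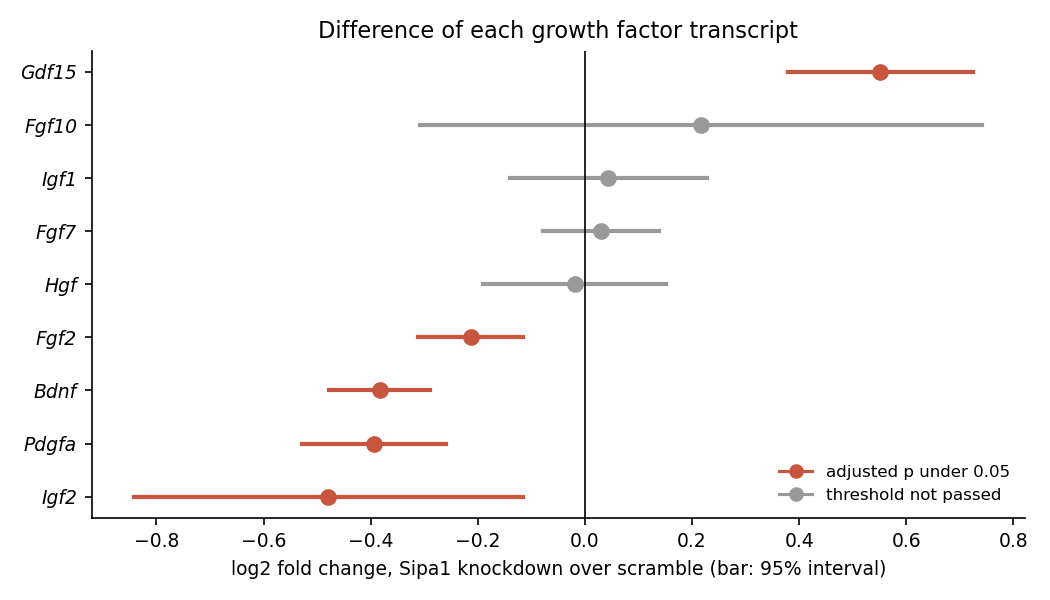
Log2 fold change of each growth factor transcript, Sipa1 knockdown over scramble, with its 95% interval from the edgeR fit, coloured where the adjusted p was under 0.05. Gdf15 (0.55) is right of 0, Fgf2, Bdnf, Pdgfa and Igf2 (-0.21 to -0.48) are left of it, and the intervals of the other 4 cross 0.

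Compared per transcript length, the deposited FPKM values put Fgf2 first in both groups, at 39.4 ± 2.15 FPKM in knockdown cells and 45.6 ± 2.46 FPKM in scramble cells (SD, n = 3 each). Of all tested genes, 90.8% had a lower mean FPKM than Fgf2. In knockdown cells Fgf7 (25.7), Hgf (24.5) and Bdnf (22.7 FPKM) followed, and neighbours in that run overlapped between libraries. In scramble cells Bdnf stood second at 29.4 FPKM, above Fgf7 (25.1) and Hgf (24.4) without overlap with Fgf7. Gdf15 and Pdgfa exchanged places. Gdf15 was at 16.6 ± 1.45 FPKM and Pdgfa at 11.4 ± 0.510 FPKM in knockdown cells, against 11.5 ± 1.67 and 15.8 ± 1.40 FPKM in scramble cells, with no overlap between the pair in either group. Igf1 (2.20 FPKM in knockdown and 2.12 FPKM in scramble cells), Igf2 (0.492 and 0.678 FPKM) and Fgf10 (0.192 and 0.165 FPKM) were the lowest.

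**Figure D3:**
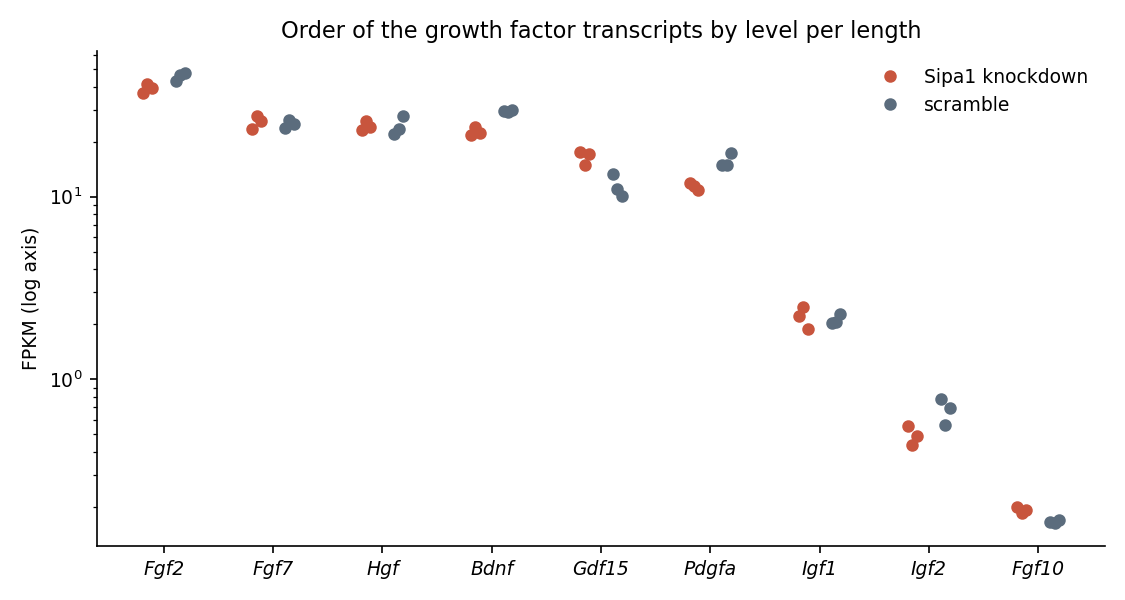
Deposited FPKM of each growth factor transcript (log axis) in the 3 Sipa1 knockdown and 3 scramble libraries, ordered by the knockdown mean. Fgf2 is highest in both groups, Gdf15 lies above Pdgfa in knockdown and below it in scramble libraries, and Igf1, Igf2 and Fgf10 lie well under the rest.

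The genes whose pattern over the 6 libraries was most like each called member were found by the root mean square distance between centred log2 CPM values, among 9903 genes (9904 for Igf2) with an average log2 CPM above 3. For Fgf2 they were Fundc1 and Asns, both at a distance of 0.011 log2 units. For Bdnf they were Lipa (0.015) and Traf6 (0.020), for Pdgfa Arid5a (0.024) and Mt2 (0.043), for Gdf15 Gjb5 (0.038) and Lpar6 (0.072), and for Igf2 Mdfi (0.081) and Mvk (0.087). With 2 groups, any gene of a like fold change is close by this measure.

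Among related ligands more fell than rose. Of 17 tested among 24 listed, 6 fell and 2 rose, with a median log2 fold change of -0.28. That is 47.1% called, against 32.2% of all tested genes, of which 15.8% were lower and 16.4% higher. Gdf6, a BMP-family ligand, was at 57.1 ± 2.58 FPKM in knockdown cells and 72.7 ± 1.37 FPKM in scramble cells (log2 -0.35, SE 0.044, edgeR adjusted p = 1.29e-06). Gdnf, a neurotrophic ligand of RET, fell by 0.36, while Fgf18 rose by 0.91 on the log2 scale. Pdgfd, the other gene called higher, stood at 0.22 with overlapping groups (edgeR adjusted p = 0.0330), and its call was lost in 8 of 17 alternatives. Among these were leaving out knockdown replicate 2 (adjusted p = 0.239) or 3 (0.0755), or scramble replicate 2 (0.137) or 3 (0.102). Without scramble replicate 1 the list had 4 lower calls. Pdgfb (-0.04, SE 0.090) and Pdgfc (0.19, SE 0.12), named after their values were seen, did not pass the threshold.

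The receptors that read these factors included 7 that fell and 1 that rose among 19 tested of 21. The share called was 42.1%, against 32.2% of all tested genes, of which 15.8% were lower and 16.4% higher. Pdgfra, which binds PDGF-A, was at 37.2 ± 1.62 FPKM in knockdown cells and 45.4 ± 0.601 FPKM in scramble cells (log2 -0.30, SE 0.043, edgeR adjusted p = 8.82e-06). Ligand and receptor RNA were thus both lower, and Pdgfra is also 1 of the 3 fibroblast markers called lower. Pdgfrb fell by 0.24 on the log2 scale, the IGF receptor Igf1r by 0.29 and the decoy-like FGF receptor Fgfrl1 by 0.44. Sort1, the sortilin that binds the BDNF precursor, was at 1.25 ± 0.0309 FPKM in knockdown cells and 2.26 ± 0.169 FPKM in scramble cells (log2 -0.85, SE 0.080). Ret rose by 0.66 at a low level, 0.525 FPKM in knockdown and 0.305 FPKM in scramble cells, a call lost in the filtered fits of log2(FPKM + 1) and log2(FPKM + 0.1) (limma adjusted p = 0.0581 and 0.0525). Fgfr1 (-0.08, SE 0.043), Fgfr2 (0.10, SE 0.099), Met (-0.06, SE 0.072), Igf2r (-0.08, SE 0.043) and Ngfr (-0.12, SE 0.15) did not pass the threshold. Ntrk2 and Gfral were not analysed here. The median over the receptors was -0.08.

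IGF availability is set by binding proteins and by the protease PAPP-A, which cleaves IGFBP4 to free IGF. Both of these rose: Pappa was at 7.98 ± 0.592 FPKM in knockdown cells and 4.22 ± 0.246 FPKM in scramble cells (log2 0.92, SE 0.054, edgeR adjusted p = 1.11e-11). Igfbp4 was at 122 ± 5.35 FPKM in knockdown cells and 79.6 ± 4.16 FPKM in scramble cells (log2 0.61, SE 0.049, edgeR adjusted p = 1.88e-09). Igfbp2 stood at 0.21 (edgeR adjusted p = 0.0209) and Igfbp5 at -0.48 (edgeR adjusted p = 0.0439). The Igfbp2 call was lost without knockdown replicate 1 (adjusted p = 0.0604) or 3 (0.0538) or scramble replicate 2 (0.150), and the Igfbp5 call without knockdown replicate 1 (0.175) or 3 (0.0979) or scramble replicate 1 (0.0740). Igfbp7, the most abundant of them at 1288 FPKM in knockdown and 1226 FPKM in scramble cells, stood at 0.07 (SE 0.050), Igfbp3 at -0.05 (SE 0.063) and Igfbp6 at 0.02 (SE 0.20), and none of the 3 passed the threshold. In all, 4 of 13 tested genes of this list rose and 1 fell, and without knockdown replicate 3 the list had 3 calls. The share called was 38.5%, against 32.2% of all tested genes.

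A list around the activation or restraint of HGF, BDNF and PDGF precursors holds, beside proteases and inhibitors, the receptor genes F2r and Plaur. It had 5 rising and 0 falling members among 13 tested. That is 38.5% called, against 32.2% of all tested genes, and the median log2 fold change of the list was 0.03. In the list, 0 fell at an unadjusted p under 0.05 in edgeR, or in DESeq2 or limma-voom with their adjusted p. F2r, the thrombin receptor, was at 88.6 ± 1.05 FPKM in knockdown cells and 68.4 ± 2.32 FPKM in scramble cells (log2 0.37, SE 0.044), and the proprotein convertase gene Pcsk6 rose by 0.47. Furin, which cleaves many growth factor precursors, rose by 0.22, and the urokinase gene Plau and its receptor gene Plaur by 0.41 and 0.27 on the log2 scale. These last 3 complete the list's 5 calls and were named for that reason.

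Heparan sulfate carries FGF2, FGF7 and FGF10 to their receptors, and its genes split evenly, with 5 rising and 5 falling of 22 tested. The sulfotransferase genes Hs2st1 and Hs6st2 rose by 0.37 and 0.30, while the chain polymerase gene Ext1 fell by 0.30 and the glypican gene Gpc2 by 1.01 on the log2 scale. Among adaptors and feedback genes of receptor tyrosine kinases, 5 fell and 3 rose of 25 tested. Spry1, a feedback inhibitor induced by FGF signalling, was at 18.3 ± 0.934 FPKM in knockdown cells and 29.5 ± 1.38 FPKM in scramble cells (log2 -0.70, SE 0.050, edgeR adjusted p = 2.97e-10). Spred2 fell by 0.55, a call lost in the 3 FPKM fits (limma adjusted p = 0.0676 to 0.101), whereas Spred3 rose by 0.35 and the ERK phosphatase gene Dusp5 by 0.82. Shares called in these 6 lists ran from 32.0% to 47.1%, against 32.2% of all tested genes.

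**Figure D4:**
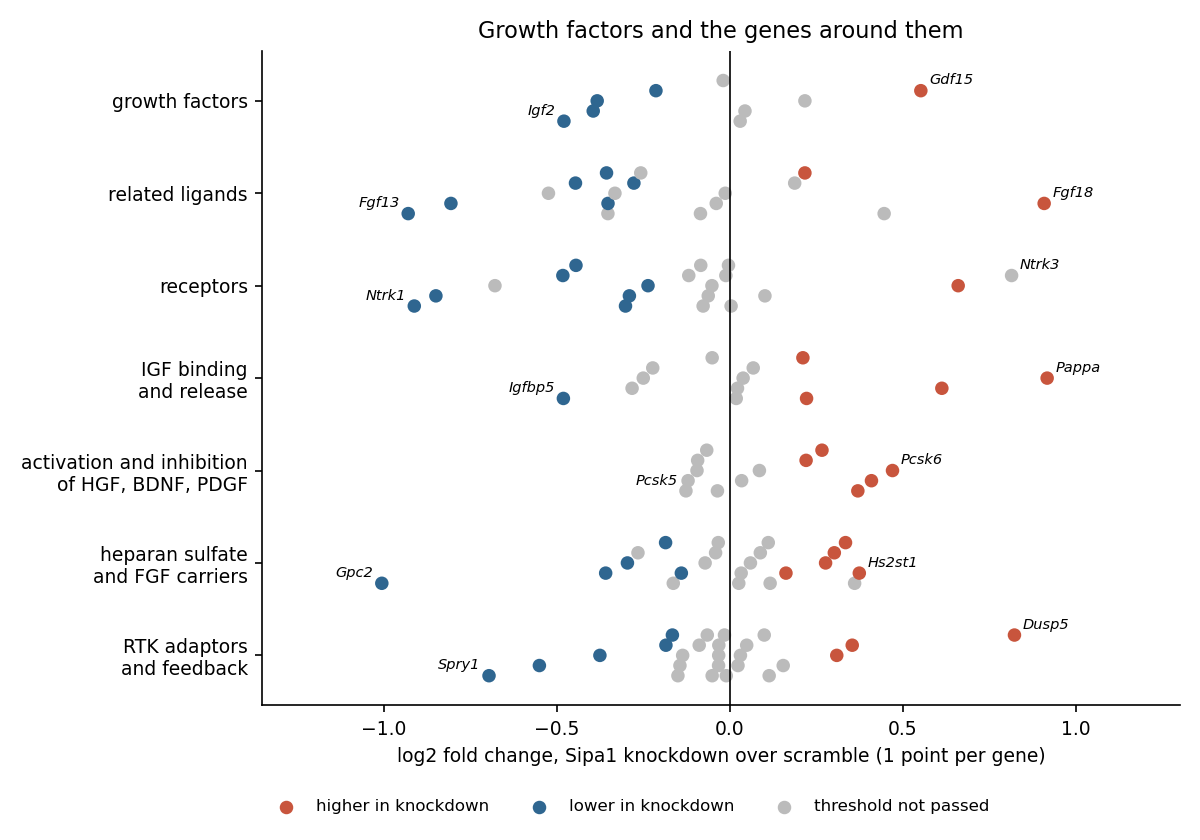
Log2 fold change, Sipa1 knockdown over scramble, of every tested gene in the growth factor set and in 6 lists of related genes (1 point per gene, coloured by the edgeR call, with the lowest and highest gene of each row named). Receptors and related ligands hold more lower than higher calls. All 5 calls in the activation and inhibition list, which includes the receptor genes F2r and Plaur, are higher. Shares called in the 6 related lists ran from 32.0% to 47.1%, against 32.2% of all tested genes.

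Genes beside the members on the chromosome were also read. Pgpep1, next to Gdf15, rose by 0.20 (SE 0.048), less than Gdf15 itself. Mrps30, near Fgf10, stood at 0.24 (SE 0.073, edgeR adjusted p = 0.0127) and Galk2, near Fgf7, at -0.14 (SE 0.047, edgeR adjusted p = 0.0297). Their calls were lost in 3 and 7 of 17 alternatives. Spata5, near Fgf2, stood at -0.01 (SE 0.060) and Lrrc25, near Gdf15, at 0.34 (SE 0.36), and neither passed the threshold. These 3 calls are 42.9% of the 7 tested neighbours, against 32.2% of all tested genes, and without knockdown replicate 1 or scramble replicate 1 there was 1 call.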

How the data were processed

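Poly(A) RNA of 6 samples was sequenced in paired reads from a strand-specific kit, per the labels' protocols. The submitters' processing notes list HISAT2, StringTie and the mm10 build with no version. The authors deposited 1 table, given 6 times in identical form: raw read counts, FPKM, a signed fold score (minus the inverse for a fall) and an adjusted p-value per gene, per the file headers. No label or header names the tool of their comparison. The lowest count of any gene in any library is 1, so genes without reads in some library fall outside these results. The other 12 per-sample columns (TPM and normalized values) were not used.

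Counts were tested with edgeR 4.0.16 in R 4.3.3 by a two-sided quasi-likelihood test of group, with the filterByExpr defaults, TMM scaling, robust estimation and Benjamini-Hochberg adjustment over 15954 genes. The SE was taken as the size of the log2 fold change over the square root of the F statistic. Intervals are 95% from the fit's degrees of freedom and cover the spread between libraries. Alternatives were RLE or library-size scaling, no filter or 1 CPM in 3 libraries, DESeq2 1.42.0, limma 3.58.1 with voom, a non-robust fit, the replicate block, each library left out, and limma for FPKM on a log2 scale (pseudocount 1 or 0.1 with a group mean of at least 0.5 FPKM, or 1 with no minimum). The script was tested on simulated data. Coordinates and promoters are RefSeq GRCm38.p6, matched by NCBI gene ID for all 9 members; 3' UTRs and overlaps are GENCODE on GRCm38, read with Python 3.11.15.

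Named genes were all members, Sipa1, up to 2 rising and 2 falling genes per list by smallest adjusted p, the cognate receptors, the Igfbp genes and genes beside or overlapping members. The members, lists and 7-mer were chosen with earlier results of these data known.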

Additional observations from a re-analysis of the deposited data

How the results depend on the processing

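Fgf2, Pdgfa, Bdnf, Gdf15 and Sipa1 kept their direction and their call in all 17 alternatives. Their log2 fold changes ranged from -0.26 to -0.17 for Fgf2, -0.47 to -0.32 for Pdgfa, -0.43 to -0.36 for Bdnf, 0.48 to 0.66 for Gdf15 and -1.36 to -1.10 for Sipa1. Igf2 lost its call with DESeq2 (-0.48, adjusted p = 0.0613) and in limma on log2(FPKM + 1) with and without the FPKM filter (-0.17 both times) and on log2(FPKM + 0.1) (-0.39). With each library left out in turn, Igf2 ranged from -0.59 to -0.37, with the call lost in 4 of 6. Hgf, never called, turned to 0.01 in all 3 FPKM settings (0.00756, 0.007995 and 0.00756) and ranged from -0.0836 to 0.0909 with a library left out. Fgf7 ranged from -0.0314 to 0.0863 and Igf1 from -0.0639 to 0.147 there. Fgf10 could not be fitted with the FPKM filter or the 1 CPM filter, which removed it. With a library left out, the IGF binding list had 3 to 5 calls and the neighbouring genes 1 to 3. The cause of these differences was not tested. The number of all genes called was 4017 to 5307, against 5139. With the replicate block 5307 genes and 5 members were called (Igf2 -0.47, adjusted p = 0.0372). Of the genes named from the lists, Pdgfd (0.0545) and Igfbp5 (0.204) missed the threshold there. Same-numbered libraries did not deviate together (correlations across genes of 0.00405, -0.00912 and -0.0101). Differently numbered ones ran from -0.0187 to 0.0256. Such values give no sign of pairing by number, but they cannot show that the replicates were unpaired, and the labels do not say. Fgf10 and Igf2 rest on the fewest reads of the members, 27 to 40 and 78 to 138 per library.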
